A study of Rattus norvegicus with 4 samples.

Results

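The genes described here encode the proteins that make and carry small regulatory RNAs, from the first cut of a microRNA transcript to its loading into an Argonaute protein. They were chosen by name: Drosha, Dgcr8, Xpo5, Dicer1, Tarbp2, Prkra, Ago1, Ago2, Ago3 and Ago4, each by the row of the value table whose annotated gene symbol is exactly that name, with the brightest row on average where a gene had more than 1. Of the 10 names, 7 were found among the 14497 genes with a symbol of their own. Ago1, Ago2 and Ago3 matched no row and were not analysed here, so Ago4 alone stands for the Argonaute family. The RNA came from primary cultures of hippocampal neurons of rat embryos (Rattus norvegicus), 2 cultures given an shRNA against Gld2 and 2 control cultures given a scrambled shRNA, each on 1 of 4 Affymetrix whole-transcript arrays. Per the series' design text the neurons were transduced, so every culture, the controls included, carried a hairpin RNA, and no culture without a hairpin was analysed here. The labels give neither the vector and promoter that drove the hairpins nor their sequences, the rat strain, the time after transduction, or whether the cultures of 1 group were prepared apart, so a p-value weighs only the spread between these cultures, some of it perhaps technical. Gld2 (symbol Tent2) is a poly(A) polymerase of the cytoplasm, and the RNA was first captured on poly(U) Sepharose and eluted thermally, so a lower amount of a transcript and a poorer recovery of its tail cannot be told apart.

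MicroRNAs are cut from long nuclear transcripts by the Microprocessor, in which Drosha is the nuclease and Dgcr8 the subunit that grips the RNA hairpin. Exportin 5, the product of Xpo5, carries the released hairpin to the cytoplasm, where Dicer, with the double-stranded RNA binding proteins Tarbp2 and Prkra (also known as PACT) beside it, cuts off the loop. An Argonaute protein keeps a single strand of the duplex and uses it to find target mRNAs. A short hairpin RNA made from a vector joins the same route at export and uses Dicer and Argonaute after that. In neurons the pathway is known for its part in dendrite growth and in local control of translation, and Gld2 itself is known to add adenosines to the ends of some microRNAs.

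The transcript of Dgcr8 is also a microRNA host. Among the rat microRNAs listed by RefSeq, the hairpin of Mir1306 lies within the Dgcr8 gene, on the same strand, at chr11:96213960-96214032 of GRCr8, and none of the other 9 genes contains a listed microRNA. The hairpin is shown because the Microprocessor is known to cut hairpins within the Dgcr8 transcript itself, and because Dgcr8 was the member with the clearest difference. In the hairpin the capitals mark both mature arms, and in the arms they mark the seed, bases 2 to 8, the stretch that pairs with targets.
Mir1306 hairpin: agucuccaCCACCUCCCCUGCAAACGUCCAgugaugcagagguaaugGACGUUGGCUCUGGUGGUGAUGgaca
rno-miR-1306-5p: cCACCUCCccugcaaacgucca
rno-miR-1306-3p: gACGUUGGcucugguggugaug
The hairpin is 73 bases long and each arm 22, and neither seed is shared with another mature entry of the table. The arms were not measured: among the array rows with 1 symbol, 0 carried a microRNA gene symbol. Where the array's Dgcr8 probes lie relative to the hairpin was not given.

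Of the 7 genes measured, Dgcr8 was lower in the Gld2 shRNA cultures, 0 were higher, and 6 did not pass the test. A gene passed at an adjusted p under 0.05 in limma, a linear model with variances moderated across genes; all adjusted p-values here are from it, corrected after Benjamini and Hochberg over the 14497 genes unless stated. Over all genes 2.41% were called lower and 1.69% higher, 4.1% in all. The share called lower among the 7, 14.3%, rests on Dgcr8 alone. Leaving out a culture changed the count: it was 3 without Gld2 shRNA replicate 1, where 9.7% of all genes were called lower, and 0 without Gld2 shRNA replicate 2, where 0.683% were. It was also 0 when either control culture was dropped, with 0.0207% of all genes called lower without replicate 1 and 0.0483% without replicate 2. The values below are log2 RMA values, a background-corrected and normalized probe set signal in which a difference of 1 is a doubling, and each difference is Gld2 shRNA minus scrambled shRNA. Signals of different probe sets are not on one scale, so each gene is compared only with itself across cultures, and deciles or sums of signal serve as rough groupings of probe sets, not as an order of transcript amounts.

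**Figure D1:**
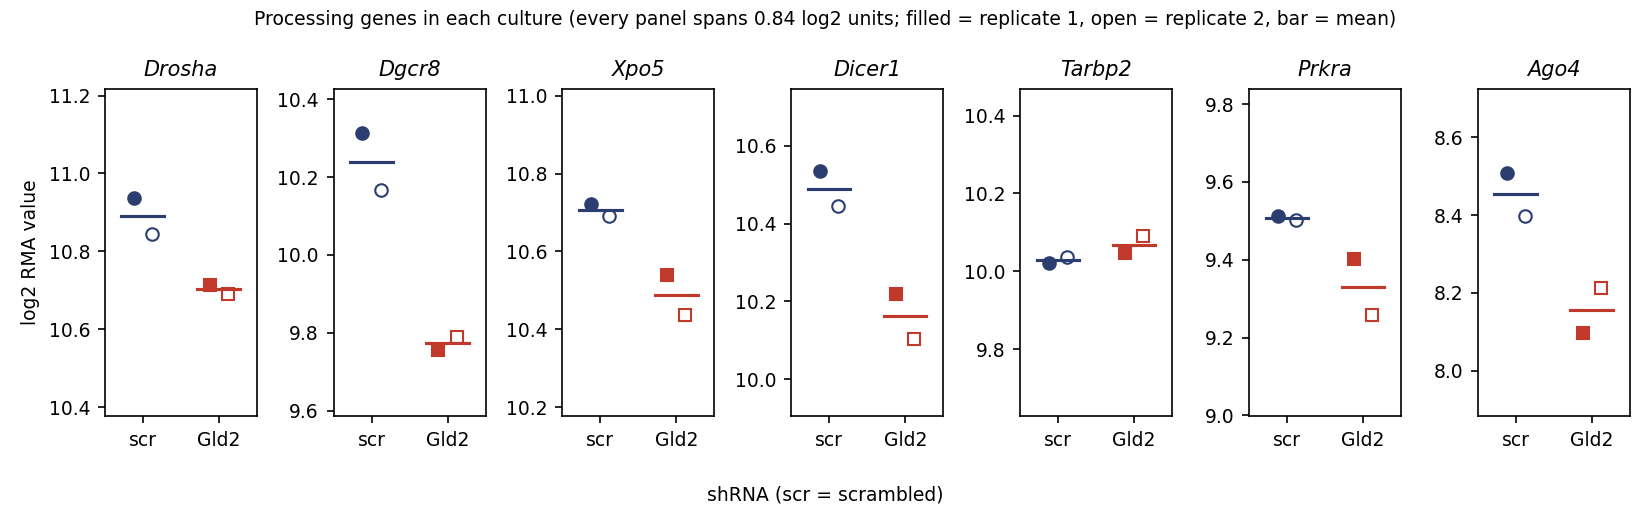
Log2 RMA values (vertical axis) of the 7 genes in each culture, scrambled shRNA as circles and Gld2 shRNA as squares, with replicate 1 filled, replicate 2 open and the group mean as a bar. Every panel spans the same range, and in each panel except Tarbp2 both Gld2 shRNA cultures lie below both controls, by the widest margin for Dgcr8. Of all genes tested, 34.5% show that pattern.

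Of the subunits of the Microprocessor, Dgcr8 fell and Drosha did not pass the test. Dgcr8 (probe set 10752320) read 9.76 and 9.79 in Gld2 shRNA replicates 1 and 2, and 10.31 and 10.17 in scrambled shRNA replicates 1 and 2. Both knockdown cultures were low and close together, and the groups were 0.38 apart at their nearest values. Their means were 9.77 ± 0.0238 (SD, n = 2) for Gld2 shRNA and 10.24 ± 0.105 (SD, n = 2) for scrambled shRNA. Dgcr8 therefore fell by 0.47 on the log2 scale (standard error 0.0734, 95% confidence interval from -0.65 to -0.29, adjusted p = 0.0326), to 72.3% of the control level, a 1.38-fold reduction. Of all genes 1.17% had a more negative difference. Genes of the same decile of signal level as Dgcr8 had a median difference of -0.10 and 4.97% of them were called lower, and genes of the same decile of genomic length had a median of -0.03 with 2.42% called lower.

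The Dgcr8 call was not held in every setting, although its difference stayed below 0 in all 15 alternatives, between -0.54 and -0.36. It passed in 9 of the 15, with adjusted p-values from 0.000123 to 0.291 by limma. Without Gld2 shRNA replicate 2 the adjusted p was 0.0719, without scrambled shRNA replicate 1 it was 0.288 and without scrambled shRNA replicate 2 it was 0.151. The call was also lost when each array was centred on the median of the genes tested (0.0778), when unnamed rows were tested too (0.0794) and without moderation across genes (0.291).

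Drosha (probe set 10813778), the nuclease of the same complex, read 10.71 and 10.69 with Gld2 shRNA, and 10.94 and 10.85 with scrambled shRNA. The groups did not overlap, but their nearest values were only 0.13 apart. The difference was -0.19 (standard error 0.0649, 95% confidence interval from -0.35 to -0.03), which did not pass the test over all genes (adjusted p = 0.151). Drosha is the longest of the 7 genes, in the top decile of genomic length, where the median difference was -0.12 and 8.43% of genes were called lower. With the trend of the arrays with gene length removed, the difference of Drosha was -0.09 and that of Dgcr8 -0.43. The difference between the changes of the 2 subunits was not tested.

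The genes of export and dicing, Xpo5 and Dicer1, had negative differences that did not pass. Xpo5 (probe set 10926513), which encodes the carrier of hairpins out of the nucleus, had values of 10.54 and 10.44 with Gld2 shRNA against 10.72 and 10.69 with scrambled shRNA. The controls were nearly equal and both knockdown cultures lay below them. The difference was -0.22 (95% confidence interval from -0.38 to -0.06, adjusted p = 0.121), 86.0% of the control level. Without Gld2 shRNA replicate 1, the culture nearer the controls for this gene, the adjusted p was 0.0496, while in the other fits without 1 culture it was 0.280 to 0.490. Xpo5 passed in 3 of 15 alternatives.

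Dicer1 (probe set 10892007), the gene of the cytoplasmic nuclease, had the second largest difference. It read 10.22 and 10.10 with Gld2 shRNA, and 10.53 and 10.45 with scrambled shRNA, groups 0.23 apart at their nearest. Means were 10.16 ± 0.0821 (SD, n = 2) for Gld2 shRNA and 10.49 ± 0.0631 (SD, n = 2) for scrambled shRNA. The difference was -0.33 (standard error 0.0724, 95% confidence interval from -0.51 to -0.15), or 79.7% of the control level, and it missed the threshold at an adjusted p of 0.0675. Dicer1 passed in 5 of 15 alternatives, among them the one with a variance prior that follows the level (adjusted p = 0.00255 by limma). It did not pass with arrays centred on the genes tested (adjusted p = 0.117 by limma) or without moderation across genes (0.314). With 1 culture left out its difference ran from -0.39 to -0.27.

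Neither partner of Dicer passed the test. Prkra (probe set 10846331) read 9.40 and 9.26 with Gld2 shRNA, and 9.51 and 9.50 with scrambled shRNA. Its difference of -0.18 (95% confidence interval from -0.36 to -0.0015) came with an adjusted p of 0.194, and it passed in 0 of 15 alternatives. Replicate 2 of the Gld2 shRNA cultures lay farther from the controls (-0.25) than replicate 1 (-0.11).

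Tarbp2, which shares the role of Prkra at Dicer, was the only one of the 7 genes whose difference was not below 0. Its brighter probe set (10940463) read 10.05 and 10.09 with Gld2 shRNA, and 10.02 and 10.04 with scrambled shRNA, a gap of only 0.01. The difference was 0.04 (95% confidence interval from -0.11 to 0.19, adjusted p = 0.716); this interval holds both falls and rises, and does not show that Tarbp2 stayed as it was. A second, dimmer probe set of Tarbp2 (10914612) gave another picture. It read 8.96 and 9.24 with Gld2 shRNA, and 8.76 and 8.74 with scrambled shRNA, a difference of 0.35 with a standard error of 0.109. Tested among all 28826 rows it had an adjusted p of 0.170 by limma. The probe sets of Tarbp2 thus agreed in sign and not in size, and the dimmer one had an SD of 0.200 between the knockdown cultures against 0.0117 between the controls.

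Ago4 (probe set 10879838), an Argonaute protein that binds small RNAs, had values of 8.10 and 8.21 with Gld2 shRNA and of 8.51 and 8.40 with scrambled shRNA. The groups were 0.18 apart at their nearest values. The difference was -0.30 (standard error 0.0748, 95% confidence interval from -0.48 to -0.11), 81.3% of the control level, with an adjusted p of 0.0859. In its decile of signal level the median difference was 0.05, and 1.73% of genes were called lower, whereas the other 6 genes lay in deciles with medians below 0. Ago4 passed in 3 of 14 alternatives, with the lowest adjusted p, 0.0133, when each array was centred on its median over all rows. Argonaute genes are similar in sequence, and cross-hybridization between them was not tested.

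**Figure D2:**
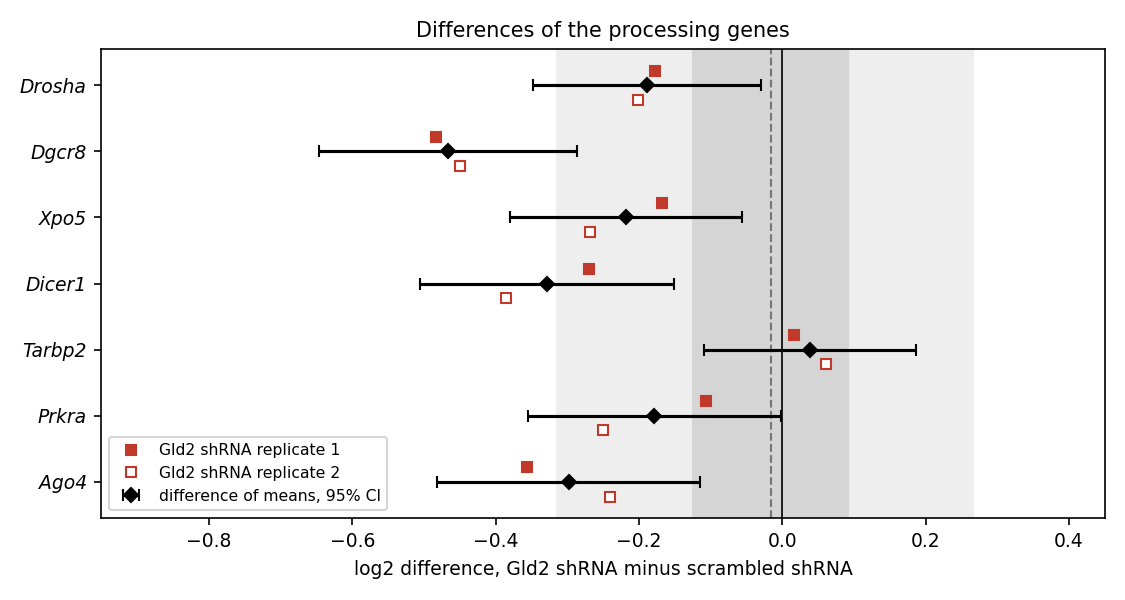
Log2 differences (horizontal axis, Gld2 shRNA minus scrambled shRNA) of the 7 genes: diamonds with bars are the differences of means with 95% confidence intervals, and squares are each Gld2 shRNA culture against the control mean. The light and dark bands hold the middle 90% and 50% of all genes (from -0.32 to 0.27 and from -0.13 to 0.09), and the dashed line is their median; Dgcr8 and Dicer1 lie to the left of both bands.

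As a list, 6 of the 7 genes had negative differences, with a median of -0.22 and a range from -0.47 to 0.04. Over all genes tested 53.8% were negative, with a median of -0.02. In deciles 6, 7 and 8 of signal level, which hold all of the 7 but Ago4, 74.3%, 78.1% and 72.2% of genes were negative. In decile 4, which holds Ago4, the share was 39.4%. In the 6 genes with negative differences both Gld2 shRNA values lay below both scrambled shRNA values, a pattern found in 34.5% of all genes. In Tarbp2 both lay above, as in 24% of all genes. The 6 also had an unadjusted p under 0.05, as did 2348 of the 14497 genes in that direction (16.2%). The 7 values come from the same 4 arrays and are not independent of each other, so the count of 6 is not 6 separate observations. In the 6 genes scrambled shRNA replicate 1 was above scrambled shRNA replicate 2 each time. Between the knockdown cultures the order varied: Dgcr8 and Ago4 were lower in replicate 1, and Drosha, Xpo5, Dicer1 and Prkra were lower in replicate 2.

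**Figure D3:**
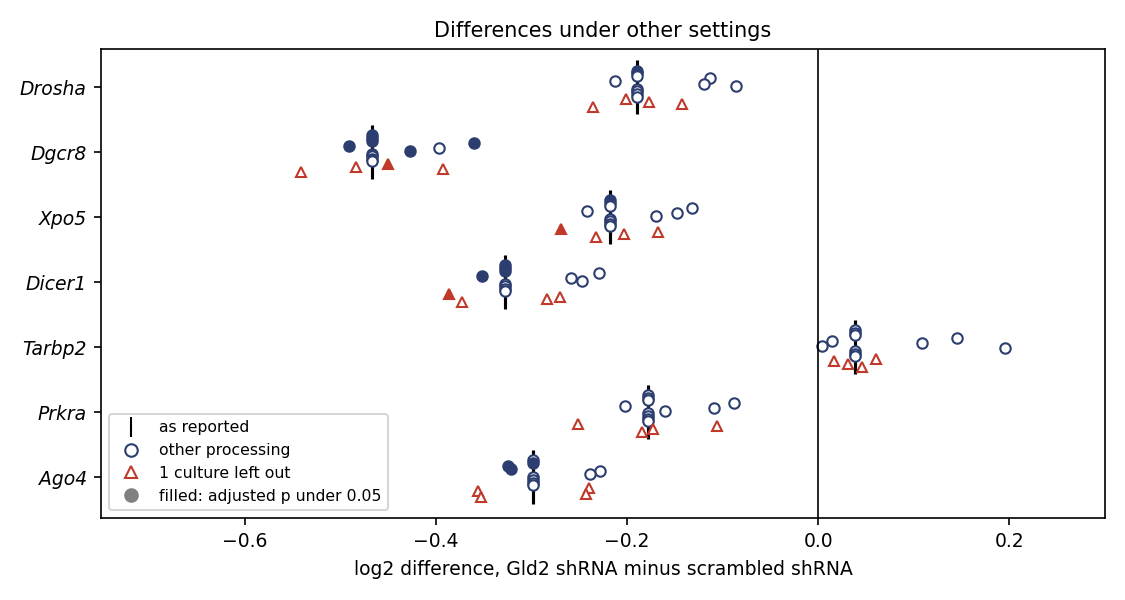
Log2 differences (horizontal axis, Gld2 shRNA minus scrambled shRNA) of the 7 genes as reported (vertical tick), under other processing (circles) and with 1 culture left out (triangles); filled symbols had an adjusted p under 0.05 by limma. Dgcr8 stays between -0.54 and -0.36, Tarbp2 stays at or just above 0 up to 0.20, and filled symbols are found for Dgcr8, Dicer1, Ago4, Xpo5 and Drosha.

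Features of the whole arrays are given here beside the differences of the processing genes, and their part in them was not tested. Array medians ran from 8.41 to 8.48, and with 4 arrays the precision is limited. Gld2 shRNA replicate 2 stood apart, with a median absolute difference of 0.158 and 0.172 from the controls against 0.105 and 0.109 for replicate 1. Median differences were below 0 in deciles 5 to 9 of signal level, down to -0.10 in those that hold Dgcr8, Tarbp2 and Prkra, and fell with gene length to -0.12 in the longest. Tent2, the target of the hairpin, stood at 9.50 and 9.35 with Gld2 shRNA against 10.73 and 10.67 with scrambled shRNA, the direction their labels give. Neuron markers had list medians of 12.58 to 12.69 across the cultures, and 0 of 8 passed the test. Astrocyte markers had list medians of 12.19 to 12.35, with Aldh1l1 at 9.08 to 9.16. Detection calls were not used, so such values do not by themselves show that a cell type was present. Of the 7 astrocyte markers the gap junction gene Gja1 fell by 0.39, and 6 did not pass. As a list the astrocyte markers did not fall: 4 differences were above 0 and 3 below, with a median of 0.05. The 8 microglia markers all had differences above 0 (median 0.13, 0 past the threshold), with signals summed on the linear scale (2 to the power of each RMA value) of 1822 and 1990 against 1698 and 1730, and none of them was at 0, a value that RMA does not give. All of the 8 but Tmem119 lay in deciles 2, 3 and 4 of signal level. Median differences there were 0.08, 0.10 and 0.05, and 27.9%, 23.7% and 39.4% of genes were negative, against 53.8% over all genes. In the oligodendrocyte lineage, endothelial and dividing cell lists 0 of 5, 0 of 5 and 0 of 3 measured markers passed. Fewer cells of a type and less RNA per cell cannot be told apart in such cultures, and the part of cell makeup in the differences of the processing genes was not tested.

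Of 59 further genes that work with the small RNA machinery, 45 were measured: 1 rose, 1 fell and 43 did not pass. That is 2.22% in each direction, beside 1.69% of all genes called higher and 2.41% called lower, and the median of -0.06 lies near the -0.02 of all genes. The gene that rose was Mov10, an RNA helicase that associates with Argonaute and is known to be induced by interferon. Mov10 (probe set 10825665) read 9.64 and 9.53 with Gld2 shRNA, and 9.01 and 9.03 with scrambled shRNA. Both knockdown cultures lay well above the tightly grouped controls. The difference was 0.56 (standard error 0.0667, 95% confidence interval from 0.40 to 0.73, adjusted p = 0.0131), 1.48-fold higher. Mov10 passed in 12 of 15 alternatives, and lost the call when scrambled shRNA replicate 1 (adjusted p = 0.183) or replicate 2 (0.158) was left out and without moderation (0.254).

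The gene that fell was Fmr1, which encodes the translational repressor FMRP, an RNA-binding protein that associates with Argonaute and with microRNAs. Fmr1 (probe set 10935706) read 9.23 and 9.11 with Gld2 shRNA, and 9.61 and 9.58 with scrambled shRNA. It fell by 0.42 on the log2 scale (standard error 0.0689, 95% confidence interval from -0.59 to -0.25, adjusted p = 0.0356), to 74.7% of the control level. The related genes Fxr1 and Fxr2 had differences of -0.00048 and 0.01 and did not pass. Fmr1 lost the call without Gld2 shRNA replicate 2 (adjusted p = 0.0796), scrambled shRNA replicate 1 (0.310) or scrambled shRNA replicate 2 (0.248), and passed in 9 of 15 alternatives.

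The partners next in order of p did not pass. Ddx6, a helicase of translational repression, had a difference of -0.27 (adjusted p = 0.0768 by limma) in the brightest of its 3 probe sets. Fxr1 (2 probe sets) and Hspa8 (5) are likewise given by their brightest. Tnrc6a, the GW182 scaffold that ties Argonaute to the deadenylases, also had -0.27 (adjusted p = 0.0802 by limma). Ajuba, a LIM protein of Argonaute complexes, Gemin4, a helicase partner found with Argonaute, and Fkbp5, a co-chaperone of Hsp90, had differences of -0.32, -0.30 and -0.29. Zfp36, which binds AU-rich elements and promotes mRNA decay, had the largest positive value of the list, 0.59, with wide spread in both groups: 11.19 and 10.86 against 10.59 and 10.28 (adjusted p = 0.0838). The chaperones Hspa8 and Hsp90ab1, which help load Argonaute, had differences of 0.02 and -0.02.

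**Figure D4:**
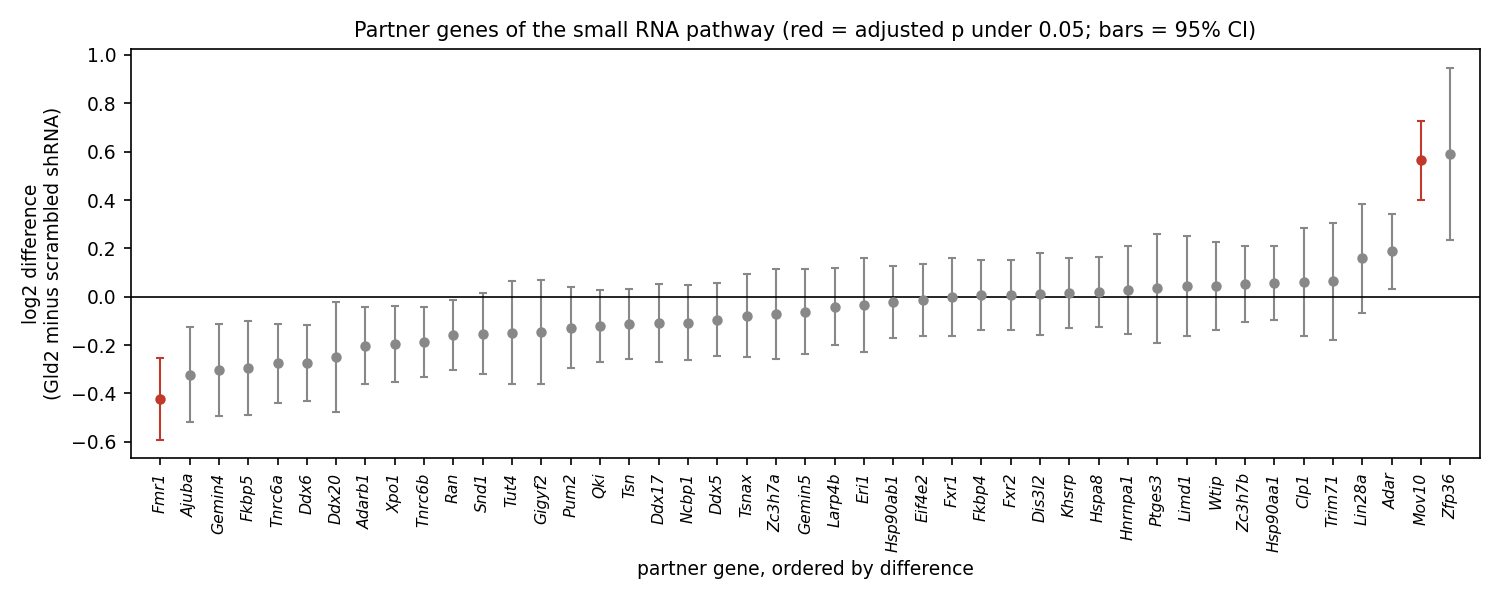
Log2 differences (vertical axis, Gld2 shRNA minus scrambled shRNA) of the 45 measured partner genes in order of size, with 95% confidence intervals from limma; red marks an adjusted p under 0.05. Fmr1 at -0.42 and Mov10 at 0.56 are the red points, and Zfp36 at 0.59 is higher with a wider interval.

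Of 5 genes of other double-stranded RNA binding proteins that share partners or substrates with Tarbp2 and Prkra, 4 were measured. Of these 3 rose, beside 1.69% of all genes called higher. This list was chosen with earlier results of these data known, so its count does not stand for such proteins at large. Whether the rises have to do with Tarbp2 or Prkra was not tested. Eif2ak2 encodes the kinase PKR, which Prkra is known to activate and Tarbp2 to inhibit. It read 10.86 and 10.69 with Gld2 shRNA, and 9.19 and 9.33 with scrambled shRNA, 2.87-fold higher (adjusted p = 0.000696). The RNA sensor genes Ifih1 and Dhx58 were 4.21-fold and 4.34-fold higher. Adar, which edits adenosines in double-stranded RNA and is also 1 of the 45 partner genes above, had a difference of 0.19 and did not pass (adjusted p = 0.143 by limma). Tarbp2 and Prkra themselves, at 0.04 and -0.18, did not pass.

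The 3 genes whose pattern over the 4 arrays was nearest to that of Dgcr8 came from unrelated families. After each gene was centred on its own mean, the root mean square difference from Dgcr8 was 0.0206 for Vip, which encodes a neuropeptide, 0.0252 for Tbcel, a tubulin cofactor-like gene, and 0.0263 for Kcng3, a potassium channel subunit. Their differences were -0.43, -0.46 and -0.44. With 4 points a gene, a likeness of this kind describes only these arrays.

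The stretches before the annotated starts of the 7 genes were rich in G and C. In the 250 bases before the start, taken from the RefSeq promoter table of GRCr8, in which all 7 genes matched, G and C made up 58.8% (Drosha) to 72.4% (Dgcr8), against a median of 52.0% over 27457 promoters. Those of Dgcr8 and Dicer1, the genes with the largest negative differences, and of Tarbp2, the gene without one, are printed so that they can be set side by side. Capitals mark matches, on either strand, to the CCAAT box (those letters) or to the GC box, spelled GGGCGG. The TATA box, searched as TATAAA, the core of the NRF1 consensus and the consensus of the interferon-stimulated response element were looked for in the same way. None of the motifs contains another.
Dgcr8, chr11:96208788-96209037, plus strand: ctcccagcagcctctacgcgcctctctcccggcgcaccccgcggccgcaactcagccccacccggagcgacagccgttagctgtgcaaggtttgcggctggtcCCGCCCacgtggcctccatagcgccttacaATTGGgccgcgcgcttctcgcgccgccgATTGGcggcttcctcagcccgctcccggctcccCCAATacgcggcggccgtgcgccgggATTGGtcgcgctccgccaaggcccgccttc
Dicer1, chr6:129457253-129457502, minus strand: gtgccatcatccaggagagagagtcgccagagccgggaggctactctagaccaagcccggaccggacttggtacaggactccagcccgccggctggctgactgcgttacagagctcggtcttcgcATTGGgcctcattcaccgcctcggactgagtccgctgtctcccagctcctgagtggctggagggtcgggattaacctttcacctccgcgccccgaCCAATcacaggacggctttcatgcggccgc
Tarbp2, chr7:135527460-135527709, plus strand: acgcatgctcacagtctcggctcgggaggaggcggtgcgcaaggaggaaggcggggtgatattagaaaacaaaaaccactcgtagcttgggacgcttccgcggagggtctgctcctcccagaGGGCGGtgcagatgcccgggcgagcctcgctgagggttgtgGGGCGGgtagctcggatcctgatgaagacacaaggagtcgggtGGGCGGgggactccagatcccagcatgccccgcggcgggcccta
The window of Dgcr8 held 4 CCAAT matches and 1 GC box, that of Dicer1 2 CCAAT matches, and that of Tarbp2 3 GC boxes and 0 CCAAT matches. CCAAT was found in 4 of the 7 windows (Drosha, Dgcr8, Dicer1 and Prkra) and in 34.3% of all promoters, and the GC box in 5 of 7 and 32.4%. Xpo5 and Ago4, also with negative differences, held 0 CCAAT matches each, and 1 and 2 GC boxes. Drosha held 3 CCAAT matches and 0 GC boxes, and Prkra 1 and 3. The printed windows therefore do not stand for all 7. The NRF1 core was found in Xpo5 alone among the 7, with 2 matches, and in 2.04% of all promoters. The TATA box and the interferon-stimulated response element were found in 0 of the 7 windows, and in 13.1% and 0.532% of all promoters. These are matches of letters, and whether a factor binds there was not measured.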

How the data were processed

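The authors deposited log2 values of 4 arrays, computed by RMA in affy (named in the submitters' processing notes); for versions, settings and genome build, nothing is given in the sources used here. Of 28826 rows, the platform annotation gave 15209 a single symbol, 306 several and 13311 none. The single symbols made 14497 genes; for 494 genes with more than 1 row the row with the highest mean was used. RefSeq's table for GRCr8 held 15178 of the identifiers and changed 0 symbols. No further normalization was applied.

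The groups were compared with lmFit and eBayes of limma 3.58.1 (R 4.3.3) in a two-sided test, adjusted after Benjamini and Hochberg over all 14497 genes, with a threshold of 0.05. There were 2 residual degrees of freedom, and moderation added 3.96. The fit was tested on simulated data with independent normal errors, whose variances were drawn from its own prior. Such data do not show how the fit fares where its assumptions fail. All 7 processing genes found are described; partners are named where they passed or ranked among the 8 smallest p, and Fxr1, Fxr2, Hspa8 and Hsp90ab1 were added after their values were seen. The genes, lists and motifs were chosen with earlier results of these data known. Gene length is the genomic span in GRCr8. Alternatives are given in the closing section; centring on the genes tested was added after the data were seen. Detection calls and scan dates were not used here, and no batch was tested.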

Additional observations from a re-analysis of the deposited data

How the results depend on the processing

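The difference of each processing gene, of Mov10 and of Fmr1 kept its sign in each alternative run, while the counts past the threshold moved. For the 7 processing genes the count was 1 as reported, and every call in any setting was of a lower value. It was 4 when the prior variance followed the level and 4 when genes below the median level were dropped (where 6 could be tested), settings in which 11.1% and 17.8% of all genes were called lower. It was 3 when genes below the 25th percentile were dropped, 3 with arrays centred on their medians and 3 at an adjusted p under 0.1, with 8.73%, 9.43% and 7.02% of all genes called lower. It was 2 with cyclic loess, where 2.61% of all genes were called lower. It was 0 with centring on the genes tested, with all rows tested, without moderation and at an adjusted p under 0.01. In those settings only 0.648%, 0.402%, 0% and 0.228% of all genes (or rows) were called lower. For the partner genes, 2 as reported, the counts in either direction were 11, 9 (of 37 that could be tested), 7, 9 and 8 in the first 5 of these settings, where 15.4%, 22%, 11.9%, 13.3% and 10.2% of all genes were called in either direction. They were 3 (2 higher, 1 lower) with cyclic loess, where 5.16% of all genes were called. They were also 3 (1 higher, 2 lower) with the rows of a gene averaged, where 4.18% were. The partner counts were 1 with centring on the genes tested, 1 with all rows tested, 0 without moderation and 0 at an adjusted p under 0.01. Beside them 2.15%, 1.09%, 0.0069% and 0.986% of all genes (or rows) were called in either direction. Leaving out 1 culture gave 0 to 3 processing genes and 0 to 5 partner genes, while 85 to 2689 of all genes were called (0.586% to 18.5%); the lone culture of a group was then assumed to vary like the other group. Over all genes, centring on array medians gave 558 higher and 1367 lower calls, centring on the genes tested 218 and 94, and cyclic loess 370 and 378, against 245 and 349 as reported. With all rows tested there were 313 calls, and without moderation 1. The cause of these shifts was not tested.

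The titles share final digits across the groups. Same-numbered cultures had a correlation of 0.143, over all genes tested, between their deviations from the group means. With 2 cultures in a group both pairs must give the same value, so this is 1 observation. Nothing in the labels says that the digits pair the cultures. With the digit as a replicate block, 1 processing gene (lower) and 3 partner genes (2 higher, 1 lower) passed, beside 3.9% of all genes.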
